A study of Mus musculus with 16 samples.

Results

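The genes described here present peptide antigens on the cell surface or prepare them for presentation. They were chosen by symbol, and a probe set counted as a member when the platform's probe-to-gene table gave one of 10 asked symbols as its only gene. This left 19 probe sets of 8 genes among 45037 probe sets of 17097 genes on the array. The genes are H2-K1 and H2-T23 of MHC class I, H2-Aa, H2-Ab1 and H2-Eb1 of MHC class II, Cd74, Psmb8 and Psmb9. B2m and Tap1 had no probe set that named them alone and were not analysed here. Of the 8 genes, 7 lie on chromosome 17 and Cd74 lies on chromosome 18.

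Striatal total RNA of 16 males, 7 to 8 weeks old, was hybridised to Affymetrix perfect-match expression arrays, with 1 array per biological replicate. The groups were DBA/2J mice given risperidone, DBA/2J control mice, A/J mice given risperidone and A/J control mice, with 4 mice in each. DBA/2J stands for the substrain DBA/2JRccHsd and A/J for A/JOlaHsd, both inbred, and the labels name no other allele. Risperidone, an atypical antipsychotic acting on dopamine and serotonin receptors, was injected intraperitoneally on 3 days, with 1 mg/kg each day. The labels call the control mice untreated, although the common protocol mentions saline injections. The comparisons ask how the strains differ at these genes, whether risperidone moved them, and whether the risperidone difference depended on strain.

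MHC class I molecules carry peptides from inside the cell to CD8 T cells and to natural killer cells, and class II molecules carry peptides from endocytosed proteins to CD4 T cells. In mice both sets are encoded in the H2 complex on chromosome 17, which is among the most polymorphic parts of the genome. In healthy brain these genes are known mainly from microglia, border macrophages and vessels, with class I also reported in neurons. DBA/2J carries the H2-d haplotype. A/J carries the recombinant H2-a haplotype, whose K and class II regions derive from H2-k and whose D region derives from H2-d. The probe sequences were not used here. A difference in transcript level and a difference in how well a probe matches each strain's allele cannot be told apart in a comparison between strains, so probe sets of 1 gene are given separately below. On these arrays the suffix x marks probe sets with probes that also match other sequences, s marks probe sets shared by several transcripts, and a marks alternative transcripts of 1 gene. The 19 member probe sets include 8 with x, 2 with s, 3 with a and 6 with none.

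The promoters of H2-K1 and H2-T23 are shown because these are the class I genes whose probe sets differed most between the strains, and that of H2-Aa is shown as the class II counterpart with none called. They are RefSeq sequences of build GRCm38.p6, taken from C57BL/6J, which is neither strain, and run 5′ to 3′ from 250 bases before to 50 bases after the start of the gene. Capitals mark matches, on either strand, to the kappaB core GATTCCC, the interferon response core AGTTTC, the X2 box core TGACG and the Y box core CCAAT. Among 27025 promoters of this length, 3.34% hold the kappaB core, 16% the interferon response core, 21% the X2 core and 37.9% the Y core.
H2-K1 (chr17:34000298-34000597, minus strand): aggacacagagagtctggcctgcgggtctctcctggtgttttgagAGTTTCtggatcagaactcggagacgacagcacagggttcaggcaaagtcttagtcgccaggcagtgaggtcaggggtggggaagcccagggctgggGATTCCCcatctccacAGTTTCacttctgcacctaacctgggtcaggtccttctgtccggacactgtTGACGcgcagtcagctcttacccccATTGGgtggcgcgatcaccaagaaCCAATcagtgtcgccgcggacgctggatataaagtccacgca
H2-T23 (chr17:36032652-36032951, minus strand): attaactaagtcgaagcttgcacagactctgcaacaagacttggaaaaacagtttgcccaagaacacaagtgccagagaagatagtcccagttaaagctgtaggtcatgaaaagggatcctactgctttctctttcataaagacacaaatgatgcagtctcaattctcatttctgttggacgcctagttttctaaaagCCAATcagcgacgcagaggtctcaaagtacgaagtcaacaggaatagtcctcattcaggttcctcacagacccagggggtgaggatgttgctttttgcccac
H2-Aa (chr17:34287774-34288073, minus strand): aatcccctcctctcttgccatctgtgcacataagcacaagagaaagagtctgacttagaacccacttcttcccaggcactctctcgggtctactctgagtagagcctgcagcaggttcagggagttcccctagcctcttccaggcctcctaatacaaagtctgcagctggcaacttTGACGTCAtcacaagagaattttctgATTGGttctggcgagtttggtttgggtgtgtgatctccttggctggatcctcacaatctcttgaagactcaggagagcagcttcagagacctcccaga
The H2-K1 window holds 1 kappaB core, 2 interferon response cores, 1 X2 core and 2 Y cores. The H2-T23 window holds 1 Y core and none of the other 3 motifs. The H2-Aa window holds 2 overlapping matches to the X2 core, which read the same letters on both strands, and 1 Y core. A match is a string of letters and not a measured site.

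Striatal markers were at unequal levels. Drd1, the dopamine D1 receptor, lay between 5.85 and 6.51, Penk, the enkephalin precursor, between 6.13 and 7.98, and Drd2, the dopamine D2 receptor, between 3.62 and 4.90 on the log2 scale. Markers of neighbouring tissue varied between arrays, with choroid plexus and ependyma markers summing to 608 to 8309 and thalamus markers to 1147 to 3413 in unlogged signal. Array medians were 5.66 to 5.71. Some arrays stood apart, and strain differences of MHC and companion genes whose call ended without them are named as such. The strains were checked with 22 strain marker probe sets outside chromosome 17 and outside the gene lists used here. The DBA/2J share of their unlogged signal was 89.2% to 102.0% in DBA/2J risperidone arrays and 96.5% to 102.0% in DBA/2J control arrays. In A/J risperidone arrays it was 27.4%, 37.0%, -0.0738% and 39.1% for replicates 1 to 4, against -1.93% to 1.74% in A/J control arrays. Replicates 1, 2 and 4 of the A/J risperidone mice were thus intermediate between the strains at markers chosen to separate them. Separately, DBA/2J control replicate 4 correlated with the other arrays at r = 0.970 to 0.979 over all probe sets, while the other 15 arrays correlated with each other at 0.986 or more.

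Of the 8 genes, 3 had a probe set that was higher in control mice of DBA/2J than of A/J, namely H2-K1 by 2.53-fold, H2-T23 by 1.92-fold and H2-Ab1 by 1.53-fold. Each was a single probe set of a gene with several, with the suffix x for H2-K1, s for H2-Ab1 and none for H2-T23. The median level of all probe sets was 5.67. In control mice the H2-K1 and H2-Ab1 probe sets averaged below it in both strains, and the H2-T23 one in A/J only. In limma, 3 of 19 member probe sets (15.8%) passed an adjusted p of 0.05 in this comparison, all higher in DBA/2J, where 3.87% of all probe sets passed in either direction and 2.01% passed as higher. Among the cell marker lists described below, the share passing in either direction ran from 0% to 17.6%, so the member share lies within their range. The control groups did not overlap for 2 of the 19, where they did not for 9.33% of all probe sets. The adjustment is Benjamini-Hochberg over all 45037 probe sets. Over all 19, the median log2 difference was 0.08, beside 0.01 for all probe sets. The number with a positive difference was 15 of 19, and it was 13 after centring each array on its median, 14 after a second quantile normalization and 12 with array weights.

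H2-K1 encodes the classical class I heavy chain of the K region and has 4 probe sets. Its probe set 1425336_PM_x_at had log2 levels of 5.60, 5.58, 5.83 and 6.08 in DBA/2J risperidone mice and 5.92, 5.92, 5.41 and 5.03 in DBA/2J control mice. The same probe set had 4.91, 4.89, 4.56 and 5.19 in A/J risperidone mice and 4.46, 4.22, 4.71 and 3.54 in A/J control mice. Every DBA/2J control array lay above every A/J control array, and the A/J control value of 3.54 was the lowest of all 16. The group means were 5.57 ± 0.43 in DBA/2J control mice and 4.23 ± 0.50 in A/J control mice (SD, n = 4 each). The log2 difference was 1.34 with an SE of 0.22, a 95% confidence interval of 0.87 to 1.80 and an adjusted p of 0.00128 in limma.

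The other 3 H2-K1 probe sets were not called between control mice. Probe set 1427746_PM_x_at had 5.32, 5.59, 5.46 and 5.48 in DBA/2J control mice and 4.76, 5.52, 5.33 and 4.57 in A/J control mice, so the groups overlapped, and the log2 difference was 0.42 (adjusted p = 0.189 in limma). Probe set 1424948_PM_x_at had a log2 difference of 0.22 (adjusted p = 0.502 in limma). Probe set 1450534_PM_x_at had one of 0.10 (adjusted p = 0.526 in limma), with 5.71 ± 0.09 in DBA/2J control mice and 5.61 ± 0.10 in A/J control mice (SD, n = 4 each), and its 95% interval of -0.06 to 0.27 lies wholly below that of 1425336_PM_x_at.

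H2-T23 encodes Qa-1, a nonclassical class I molecule that presents class I leader peptides to receptors of natural killer and T cells. Its probe set 1449556_PM_at had log2 levels of 5.86, 6.12, 5.87 and 5.94 in DBA/2J risperidone mice and 6.45, 6.26, 5.92 and 5.79 in DBA/2J control mice. It had 5.52, 5.44, 5.28 and 5.67 in A/J risperidone mice and 5.12, 5.36, 5.26 and 4.93 in A/J control mice. All 8 DBA/2J arrays lay above all 8 A/J arrays. Between control mice the means were 6.11 ± 0.30 in DBA/2J and 5.17 ± 0.19 in A/J (SD, n = 4 each), a log2 difference of 0.94 with an SE of 0.13 and an interval of 0.66 to 1.21 (adjusted p = 0.000238 in limma).

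The other H2-T23 probe set, 1419658_PM_at, had a difference of the opposite sign that was not called. Its log2 levels were 4.08, 4.19, 4.18 and 4.90 in DBA/2J control mice and 4.81, 4.41, 4.44 and 4.23 in A/J control mice. The ranges overlapped, and DBA/2J control replicate 4 alone was the highest of the 8. The log2 difference was -0.14 with an interval of -0.49 to 0.22 (adjusted p = 0.724 in limma).

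**Figure D1:**
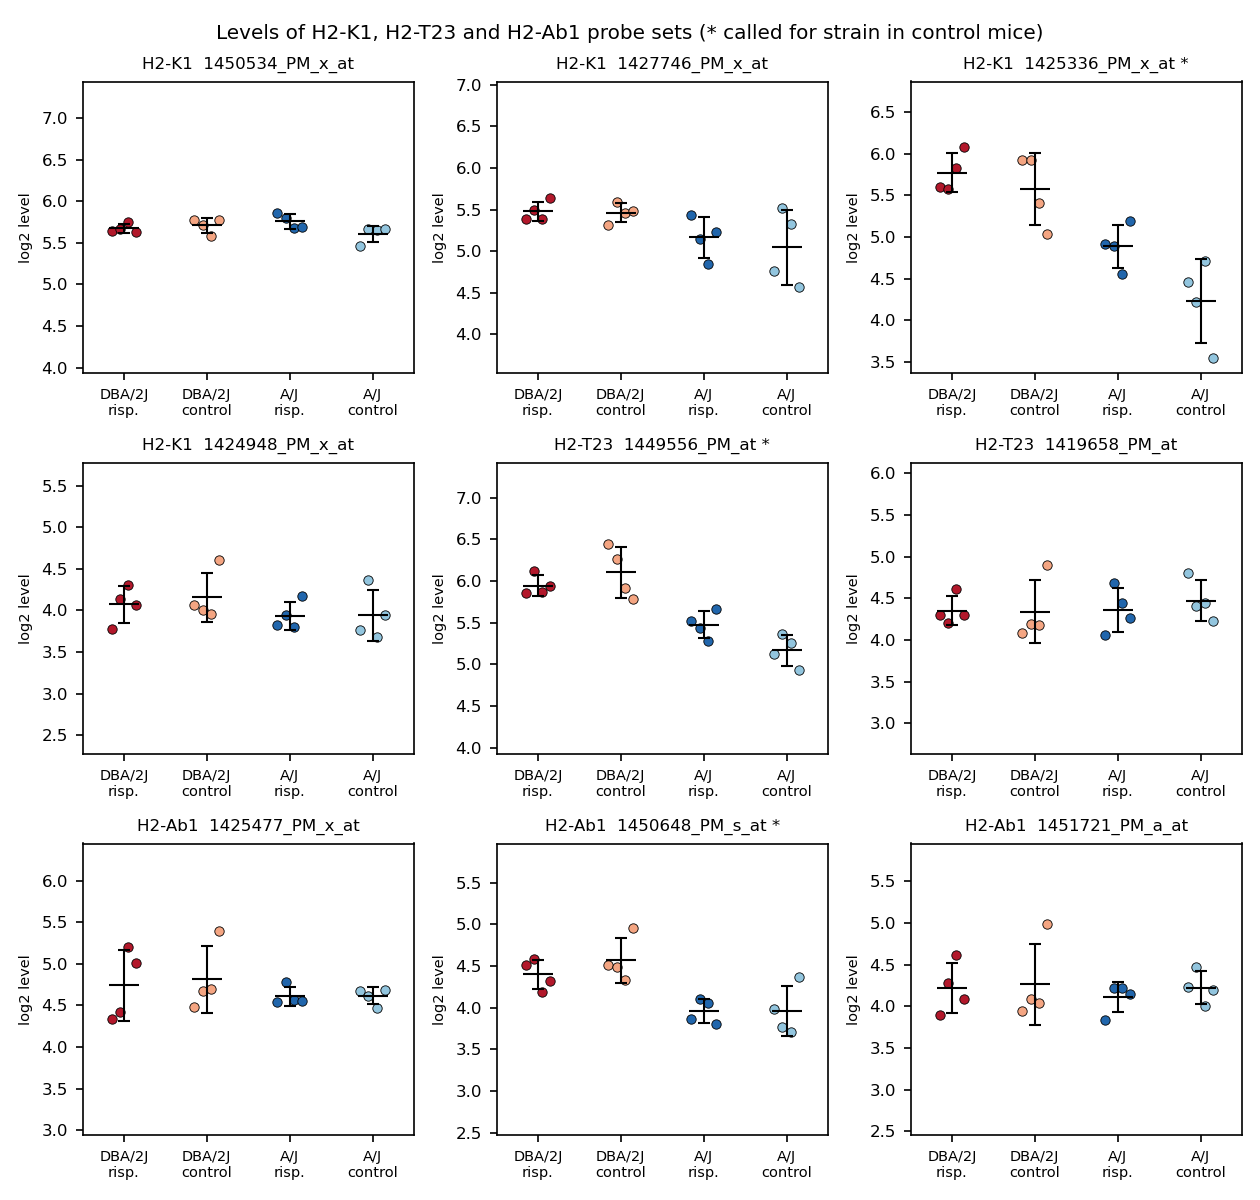
Log2 level of every H2-K1, H2-T23 and H2-Ab1 probe set on each of the 16 arrays, in 4 groups from DBA/2J risperidone to A/J control; points are arrays, long ticks are group means, bars are SD (n = 4), each panel has its own y axis of equal span, and a star marks a probe set called between control mice. H2-T23 1449556_PM_at separates all 8 DBA/2J from all 8 A/J arrays, and H2-K1 1425336_PM_x_at separates the strains within control and within risperidone mice, while DBA/2J control replicate 4 (5.03) lies below A/J risperidone replicate 4 (5.19).

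H2-Ab1 encodes the beta chain of the class II molecule I-A. Its probe set 1450648_PM_s_at had log2 levels of 4.51, 4.58, 4.19 and 4.32 in DBA/2J risperidone mice and 4.51, 4.49, 4.33 and 4.96 in DBA/2J control mice. It had 3.86, 4.11, 4.06 and 3.81 in A/J risperidone mice and 3.98, 3.77, 3.71 and 4.37 in A/J control mice. The control groups overlapped, since the lowest DBA/2J control value of 4.33 lay under the highest A/J control value of 4.37. The log2 difference between control mice was 0.62 with an SE of 0.15 (adjusted p = 0.0213 in limma). Leaving out DBA/2J control replicate 4 ended the call (0.49, adjusted p = 0.0623). So did leaving out replicate 2 (0.55, adjusted p = 0.0682) or replicate 3 (0.53, adjusted p = 0.0832) of the A/J control mice.

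The other H2-Ab1 probe sets did not pass. Probe set 1425477_PM_x_at had a log2 difference of 0.20 (adjusted p = 0.615 in limma) and 1451721_PM_a_at had one of 0.04 (adjusted p = 0.940 in limma). In both, DBA/2J control replicate 4 was the highest array of its group, at 5.39 and 4.99.

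H2-Aa, the alpha chain of I-A, had 3 probe sets and none was called. Probe set 1443783_PM_x_at had the largest log2 difference between control mice, 0.34 with an interval of 0.02 to 0.66 (adjusted p = 0.251 in limma). Its levels were 2.77, 2.57, 2.81 and 3.09 in DBA/2J control mice and 2.27, 2.66, 2.57 and 2.38 in A/J control mice, with overlap. Probe set 1438858_PM_x_at differed by 0.02 and 1452431_PM_s_at by -0.04 on the log2 scale. The single probe set of H2-Eb1, the beta chain of the class II molecule I-E, differed by 0.09 (interval -0.18 to 0.36). The single probe set of Cd74, the invariant chain that escorts class II molecules to the endosome, differed by 0.06 (interval -0.20 to 0.33).

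Cd74 had log2 levels of 5.99, 6.15, 5.76 and 5.85 in DBA/2J risperidone mice and 5.81, 5.78, 6.31 and 5.97 in DBA/2J control mice. It had 5.99, 6.13, 5.99 and 5.79 in A/J risperidone mice and 5.81, 5.89, 5.73 and 6.19 in A/J control mice. All 4 groups overlapped.

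Psmb8 and Psmb9 encode catalytic subunits of the immunoproteasome, the interferon-inducible form of the proteasome that supplies many class I peptides. Neither differed between the strains by a called amount in control mice. The 3 Psmb9 probe sets had log2 differences of -0.01 to 0.03, and the 2 Psmb8 probe sets had -0.16 (1422962_PM_a_at, interval -0.40 to 0.09) and 0.08 (1444619_PM_x_at, interval -0.12 to 0.27). The 3 Psmb9 estimates spanned 0.04 on the log2 scale, whereas the 4 H2-K1 estimates spanned 1.24 and the 2 H2-T23 estimates spanned 1.07.

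Disagreement between probe sets of 1 gene was tested directly, by fitting the difference of 2 probe sets within each array in limma, a test added after the values were seen. Among 17 member pairs, 3 disagreed on the strain difference in control mice at an adjusted p under 0.05, where 2.5% of 19058 same-gene pairs on the array did. All involved a called class I probe set. For H2-K1, the strain difference of 1450534_PM_x_at minus that of 1425336_PM_x_at was -1.24 (adjusted p = 0.00671 in limma), and that of 1427746_PM_x_at minus that of 1425336_PM_x_at was -0.92 (adjusted p = 0.0231 in limma). For H2-T23, that of 1449556_PM_at minus that of 1419658_PM_at was 1.07 (adjusted p = 0.0258 in limma).

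Another H2-K1 pair, 1425336_PM_x_at minus 1424948_PM_x_at, differed by 1.12 and did not pass (adjusted p = 0.0582 in limma). The H2-Ab1 pair 1450648_PM_s_at minus 1451721_PM_a_at differed by 0.58 (adjusted p = 0.148 in limma). Of the 17 pairs, 1 passed without DBA/2J control replicate 1, 1 without DBA/2J control replicate 2, 1 without A/J control replicate 4, and 0 when only the 8 control arrays were fitted. In risperidone mice 0 of 17 pairs passed in limma, with 6 at an unadjusted p under 0.05 and 0.472% of all same-gene pairs passing.

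**Figure D2:**
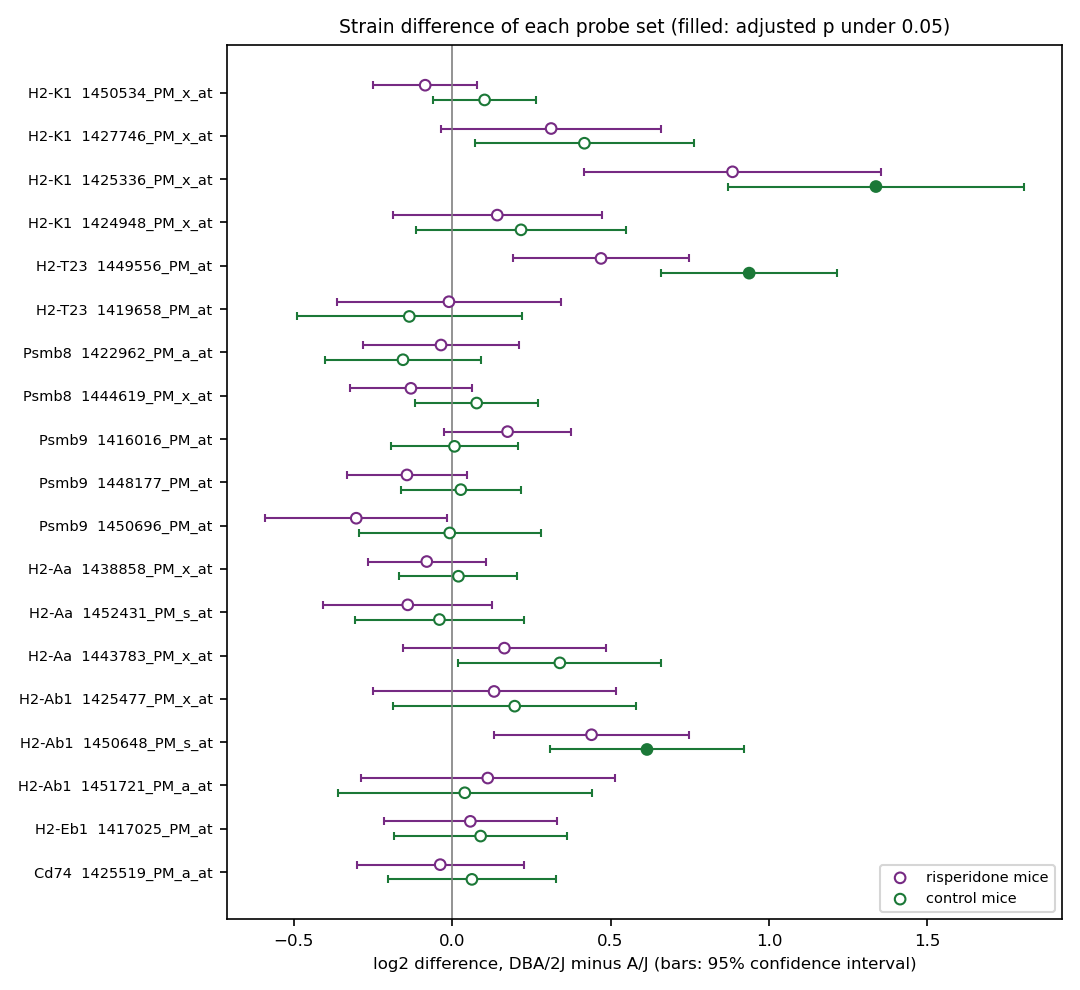
Log2 difference, DBA/2J minus A/J, of each of the 19 member probe sets in risperidone mice (upper of each pair) and control mice (lower); bars are 95% confidence intervals from limma and filled points have an adjusted p under 0.05. Filled points are H2-K1 1425336_PM_x_at at 1.34, H2-T23 1449556_PM_at at 0.94 and H2-Ab1 1450648_PM_s_at at 0.62, all in control mice, each beside unfilled probe sets of the same gene.

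Probe sets that name H2-K1 together with H2-D1, the classical class I gene of the D region, gave no called strain difference. All 5 had log2 differences between -0.32 and 0.25 in control mice, with a smallest adjusted p of 0.227. The 5 probe sets of H2-D1 alone differed by -0.12 to 0.07, with a smallest adjusted p of 0.662 in limma. For H2-D1 1452544_PM_x_at the means were 7.43 in DBA/2J and 7.42 in A/J control mice.

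In risperidone mice the same 3 probe sets again had the largest positive strain differences, but 0 of 19 passed in limma, where 0.782% of all probe sets did. At an unadjusted p under 0.05 there were 4 of 19, beside 9.43% of all probe sets. H2-K1 1425336_PM_x_at averaged 5.77 ± 0.23 in DBA/2J and 4.89 ± 0.26 in A/J risperidone mice (SD, n = 4 each), a log2 difference of 0.89 with an interval of 0.42 to 1.35 (adjusted p = 0.0829 in limma). H2-T23 1449556_PM_at differed by 0.47 (interval 0.19 to 0.75, adjusted p = 0.139 in limma). H2-Ab1 1450648_PM_s_at differed by 0.44 (interval 0.13 to 0.75, adjusted p = 0.264 in limma).

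For these 3 probe sets every DBA/2J risperidone array lay above every A/J risperidone array. In all, 4 of 19 member probe sets had risperidone groups that did not overlap, where 7.68% of all probe sets did, and the fourth was Psmb9 1448177_PM_at, lower in DBA/2J by 0.14 on the log2 scale. Psmb9 1450696_PM_at had the lowest strain difference, -0.30 (adjusted p = 0.493 in limma), with DBA/2J risperidone replicate 1 at 4.54 as its lowest array. The H2-K1 difference passed when only the 8 risperidone arrays were fitted (adjusted p = 0.0178), without A/J control replicate 4 (adjusted p = 0.0300), without DBA/2J control replicate 4 (adjusted p = 0.0414) and with array weights (0.82, adjusted p = 0.0405). H2-T23 passed with array weights only (0.48, adjusted p = 0.0443).

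These comparisons include the 3 A/J risperidone arrays whose strain markers lay between the strains. On the unlogged scale, with the A/J control mean at 0% and the DBA/2J control mean at 100%, the A/J risperidone replicates 1 to 4 lay at 35.5%, 34.1%, 13.5% and 57.3% for H2-K1 1425336_PM_x_at. For H2-T23 1449556_PM_at they lay at 28.8%, 21.4%, 7.96% and 43.6%. In both genes replicate 3, whose marker share was -0.0738%, lay closest to the A/J control mean. Replicate 4, whose share was 39.1%, lay farthest from it. Replicate 2, whose share was 37.0%, lay closer to that mean than replicate 1, whose share was 27.4%. For H2-Ab1 1450648_PM_s_at replicates 1 to 4 lay at -15.3%, 17.7%, 10.6% and -21.3%, in another order. Whether the marker shares and these positions have a common cause was not tested. The DBA/2J risperidone arrays, with marker shares of 89.2% to 102.0%, scattered more widely. They lay at 95.8% to 163.1% for this H2-K1 probe set, 64.8% to 98.7% for H2-T23 and 29.5% to 97.5% for H2-Ab1.

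Without those 3 arrays, which leaves 1 A/J risperidone array whose spread is assumed to be that of the other groups, the strain difference in risperidone mice was 1.21 with an SE of 0.36 for H2-K1 (adjusted p = 0.283 in limma). It was 0.67 with an SE of 0.22 for H2-T23 (adjusted p = 0.370 in limma) and 0.34 with an SE of 0.24 for H2-Ab1 (adjusted p = 0.999 in limma), the last being smaller than with all arrays. The control comparison still called 3 member probe sets without them.

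**Figure D3:**
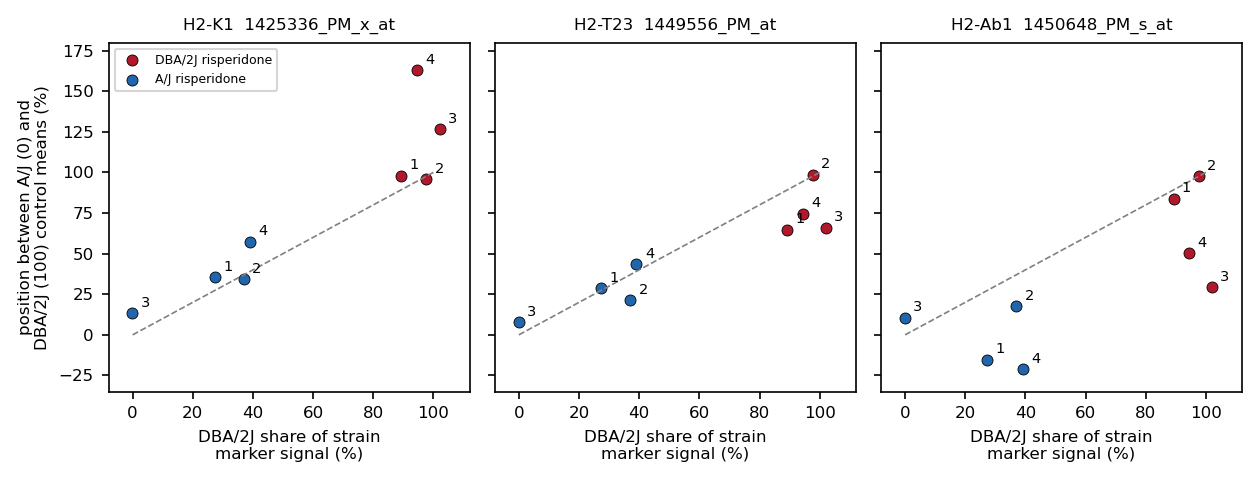
Position of each risperidone array between the A/J (0) and DBA/2J (100) control means for the 3 called probe sets, in percent of the unlogged signal, against the DBA/2J share of strain marker signal in percent; numbers are replicates and the dashed line marks equal values. A/J replicates 1, 2 and 4 lie between 21.4% and 57.3% for H2-K1 and H2-T23, while for H2-Ab1 they lie between -21.3% and 17.7%.

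No member probe set was called for risperidone in either strain. In DBA/2J mice 0 of 19 passed in limma, where 0.04% of all probe sets did. At an unadjusted p under 0.05 there were 2 of 19, beside 10.7% of all probe sets, which is a share near the background. The smallest adjusted p was 0.263 for Psmb8 1444619_PM_x_at, with 2.49, 2.62, 2.57 and 2.21 in risperidone mice and 2.86, 2.79, 2.62 and 2.85 in control mice. All but 1 of these risperidone values were below the lowest control value, the exception being equal to it. The log2 difference was -0.31 with an interval of -0.50 to -0.11. These levels lie far below the median of 5.67 over all probe sets. The brighter Psmb8 probe set, 1422962_PM_a_at, differed by 0.0075 (adjusted p = 0.988 in limma). Psmb9 1450696_PM_at differed by -0.34 (interval -0.62 to -0.05, adjusted p = 0.400 in limma). Its levels were 4.54, 5.13, 5.31 and 4.97 in risperidone mice and 5.26, 5.46, 5.33 and 5.25 in control mice. The other Psmb9 probe sets differed by 0.08 (1416016_PM_at) and -0.135 (1448177_PM_at) and were not called.

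In A/J mice 0 of 19 passed in limma, where 0% of all probe sets did. At an unadjusted p under 0.05 there were 2 of 19, beside 5.51% of all probe sets. Those 2 also had the largest strain differences of the 19 in control mice. H2-K1 1425336_PM_x_at had a log2 difference of 0.66 with an interval of 0.19 to 1.12 (adjusted p = 0.704 in limma), and H2-T23 1449556_PM_at had one of 0.31 with an interval of 0.03 to 0.59 (adjusted p = 0.843 in limma). With the DBA/2J share of each array as a covariate these were 0.33 (SE 0.33) and 0.11 (SE 0.19). Without A/J risperidone replicates 1, 2 and 4 they were 0.33 (SE 0.36) and 0.11 (SE 0.22). With all arrays the other H2-T23 probe set, 1419658_PM_at, differed by -0.11 (adjusted p = 0.996 in limma). The other H2-K1 probe sets differed by 0.15, 0.12 and -0.0075.

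The intervals set what these comparisons could show. Over the 19 probe sets the risperidone difference had intervals reaching from -0.62 to 0.67 in DBA/2J mice and from -0.52 to 1.12 in A/J mice on the log2 scale. For Cd74 the DBA/2J interval was -0.29 to 0.23 and the A/J one -0.19 to 0.33. For H2-Eb1 the DBA/2J interval was -0.31 to 0.24 and the A/J one -0.28 to 0.27. H2-K1 1450534_PM_x_at was the 1 probe set whose A/J groups did not overlap, at 5.86, 5.80, 5.68 and 5.69 in risperidone mice and 5.46, 5.66, 5.65 and 5.66 in control mice (4.42% of all probe sets), with a log2 difference of 0.15 (adjusted p = 0.936 in limma).

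Averaged over both strains, 0 of 19 passed in limma, where 0.0266% of all probe sets did. At an unadjusted p under 0.05 there were 2 of 19, beside 6.90% of all probe sets. Those were H2-K1 1425336_PM_x_at at 0.43 (adjusted p = 0.602 in limma) and Psmb8 1444619_PM_x_at at -0.20 (adjusted p = 0.524 in limma). The other H2-K1 probe sets were at 0.06, 0.07 and -0.045, and the other Psmb8 one at -0.05. The DBA/2J risperidone difference minus the A/J one was called for 0 of 19 in limma, where 0% of all probe sets passed. At an unadjusted p under 0.05 there was 1 of 19, beside 9.19% of all probe sets. That one was H2-T23 1449556_PM_at at -0.47 (interval -0.86 to -0.08, adjusted p = 0.482 in limma), and it was -0.24 (SE 0.24) with the DBA/2J share as a covariate. The other H2-T23 probe set, 1419658_PM_at, was at 0.125 (adjusted p = 0.891 in limma).

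**Figure D4:**
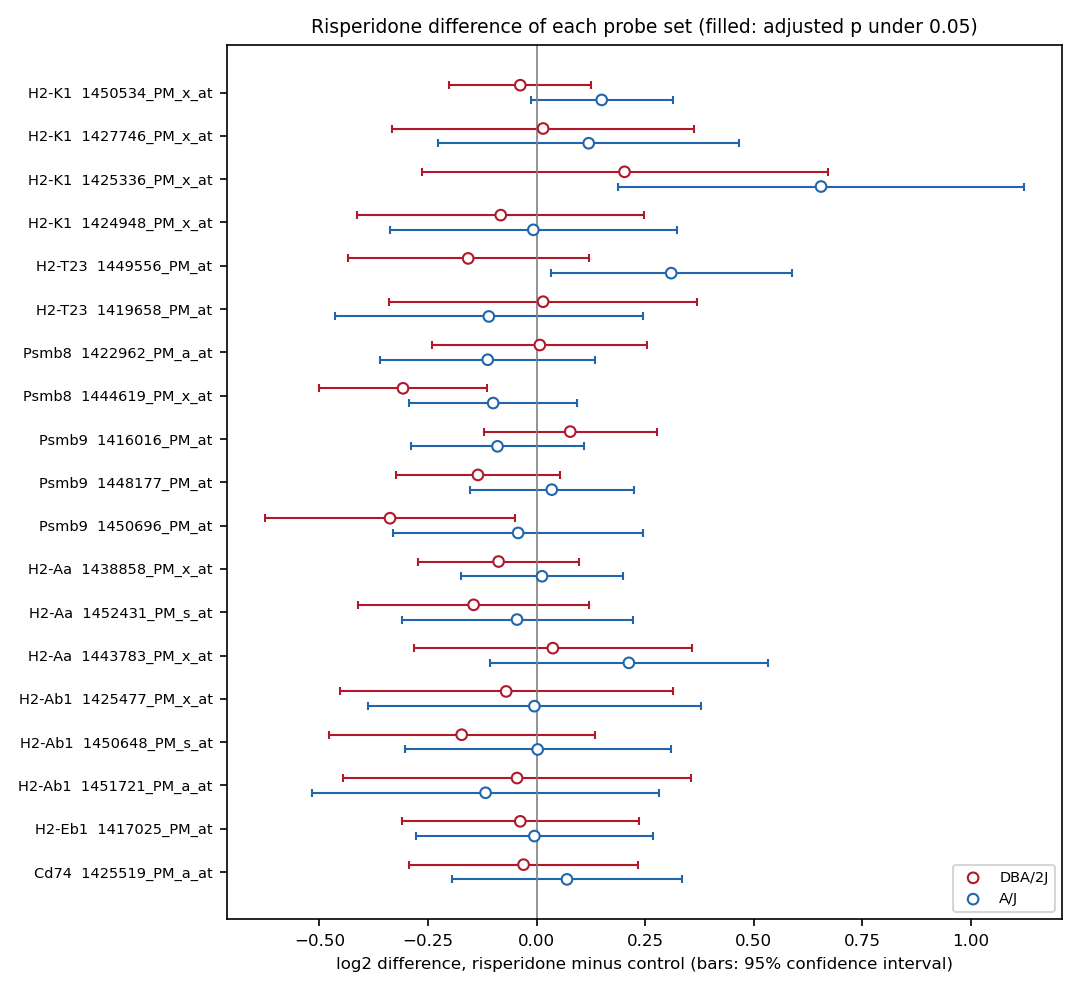
Log2 difference, risperidone minus control, of each of the 19 member probe sets in DBA/2J (upper of each pair) and A/J mice (lower); bars are 95% confidence intervals from limma, and no point is filled because none had an adjusted p under 0.05. The largest differences are 0.66 for H2-K1 1425336_PM_x_at in A/J and -0.34 for Psmb9 1450696_PM_at in DBA/2J mice.

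The spread within groups was compared between members. Deviations of the 16 arrays from their group means were correlated for 25 pairs of member probe sets, and 0 had an adjusted p under 0.05 by a permutation test with 100000 resamples within groups. The 17 same-gene pairs had Pearson r between -0.50 and 0.78 with a median of 0.08. The highest was between H2-Ab1 1425477_PM_x_at and 1451721_PM_a_at, with r = 0.78 (permutation p = 0.0202, adjusted p = 0.506, n = 16) and Spearman's rho = 0.72 (permutation p = 0.0153, adjusted p = 0.383). It was 0.47 without the 2 arrays farthest from the median and 0.59 without DBA/2J control replicate 4.

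That array was high in most but not all member probe sets. Its median deviation from its group over the 19 probe sets was 0.09, with 15 of 19 above the mean of the other arrays of its group, while the other 15 arrays had medians between -0.15 and 0.07. Over the dimmest of 3 equal classes of all probe sets it deviated by 0.13, and over the brightest by -0.11. It raises the DBA/2J control means of H2-Ab1 and H2-Eb1, where it was the highest array of its group. It lowers those of H2-K1 1425336_PM_x_at and H2-T23 1449556_PM_at, where it was the lowest array of its group, at 5.03 and 5.79. The H2-Ab1 1450648_PM_s_at difference without it is given above.

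**Figure D5:**
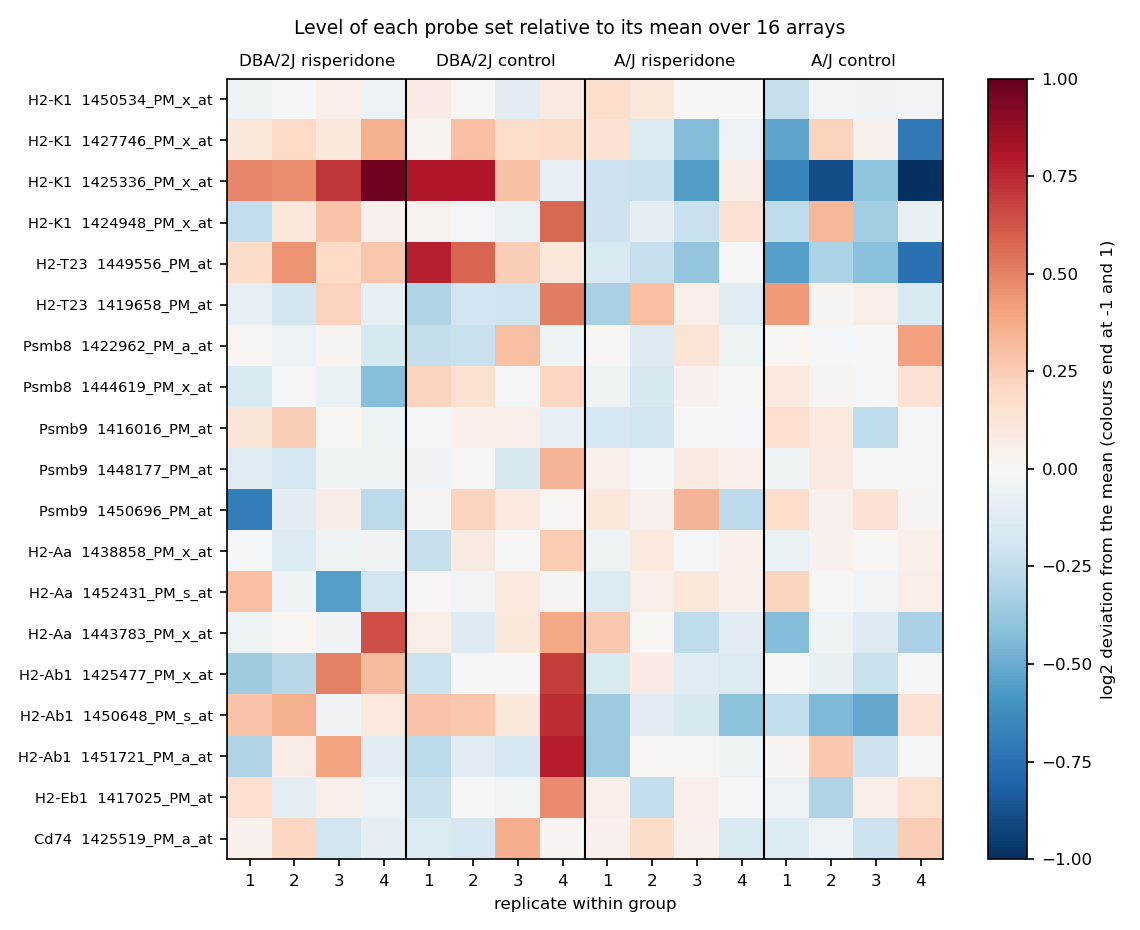
Log2 deviation of each of the 19 member probe sets (rows) from its mean over 16 arrays, by group and replicate (columns), with colours ending at -1 and 1. H2-T23 1449556_PM_at is positive in every DBA/2J and negative in every A/J array, barely so in A/J risperidone replicate 4. H2-K1 1425336_PM_x_at has the same signs apart from DBA/2J control replicate 4 and A/J risperidone replicate 4. DBA/2J control replicate 4 is the column with high values in the H2-Ab1, H2-Eb1 and 1419658_PM_at rows.

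Cd74 had r = 0.10 with H2-Aa 1438858_PM_x_at, -0.11 with H2-Ab1 1425477_PM_x_at and 0.04 with H2-Eb1 over the same deviations (n = 16, none with an adjusted permutation p under 0.05), where each gene stands for its brightest probe set. Among the other class II probe sets, r with Cd74 was 0.46 for H2-Ab1 1450648_PM_s_at, 0.37 for H2-Aa 1452431_PM_s_at, -0.002 for H2-Aa 1443783_PM_x_at and -0.02 for H2-Ab1 1451721_PM_a_at, given as a description over the same 16 arrays. The 5 genes whose probe sets followed Cd74 most closely over these 16 deviations were Lpp (r = 0.87), Ptges3l (0.87), Khdc4 (0.86), C2 (0.86) and Hao2 (0.84), picked as the highest of 28897 probe sets. Their mean levels were 2.94 to 4.95, below the median of 5.67 over all probe sets. Picking the highest of so many makes high r likely, and these r were not tested.

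The wider pathway was read through companion lists. In control mice 0 of 25 probe sets of other class I genes were called between the strains, where 3.87% of all probe sets were. The share called in each other list is given in brackets. Of 33 for class I loading and peptide supply, 1 was higher in DBA/2J and 1 lower (6.06%). Tapbpl (TAPBPR), an editor of the class I peptide cargo, had 5.23, 5.28, 5.40 and 5.96 in DBA/2J control mice and 5.01, 5.11, 5.03 and 4.82 in A/J control mice, a log2 difference of 0.48 (adjusted p = 0.0346 in limma). The highest value was that of DBA/2J control replicate 4, without which the difference was 0.31 (adjusted p = 0.0390). Leaving out 1 of replicates 1, 3 and 4 of the A/J control mice ended the call for Tapbpl, as did leaving out the 3 intermediate A/J risperidone arrays (adjusted p = 0.0762). A second Tapbpl probe set differed by 0.05 (adjusted p = 0.799 in limma). Psmb6, the constitutive catalytic subunit that Psmb9 replaces in the immunoproteasome, averaged 8.25 in DBA/2J and 8.66 in A/J control mice (adjusted p = 0.0136 in limma), and its call held without DBA/2J control replicate 4 (-0.34, adjusted p = 0.0310).

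Of 23 probe sets of the other class II pathway genes, 1 was higher and 1 lower (8.70%, beside 3.87% of all probe sets). Marchf1, a ubiquitin ligase that removes class II molecules from the surface, differed by 0.51 in 1 probe set (adjusted p = 0.00484 in limma), beside 0.28 (adjusted p = 0.0520) and 0.08 (adjusted p = 0.799) in its other 2. Ctsd, a lysosomal protease, differed by -0.40 (adjusted p = 0.0320 in limma). Its levels were 9.09, 9.10, 9.16 and 8.68 in DBA/2J control mice and 9.33, 9.42, 9.51 and 9.38 in A/J control mice. Without DBA/2J control replicate 4 it was not called (-0.29, adjusted p = 0.0649), nor without A/J control replicate 2, 3 or 4, nor without the 3 intermediate A/J arrays (adjusted p = 0.0598). Of 40 for regulators of MHC transcription 1 was lower (2.5%), the kinase Jak1 at -0.32 (adjusted p = 0.0361 in limma). Its other 2 probe sets differed by -0.11 and -0.27 and were not called. The Jak1 call passed in 7 of 16 fits that left out 1 array, and was lost when DBA/2J control replicate 4 (-0.27, adjusted p = 0.0785) or the 3 intermediate A/J arrays (adjusted p = 0.0933) were left out. Of 38 for interferon-induced genes 2 were higher (5.26%), Xaf1 at 1.62 (adjusted p = 5.86e-05 in limma) and Ifit3 at 0.34 (adjusted p = 0.0443 in limma). A second Xaf1 probe set differed by 0.27 (adjusted p = 0.203 in limma). Leaving out 1 array at a time, Xaf1 passed in 16 of 16 fits and Ifit3 in 5 of 16, and without the 3 intermediate A/J arrays Ifit3 did not pass (adjusted p = 0.0858). The median log2 difference of that list was 0.10 with 29 of 38 positive, beside a median of 0.01 for all probe sets. The same list had a median of 0.02 with 22 of 38 positive in risperidone mice. In risperidone mice Xaf1 at 0.89 (adjusted p = 0.0447 in limma) was the only call in these 5 lists, where 0.782% of all probe sets passed. It passed in 6 of 16 fits that left out 1 array, and without the 3 intermediate A/J arrays the difference was 1.60 with an SE of 0.22 (adjusted p = 0.00177 in limma). None of the 5 lists had a call for risperidone in either strain, where 0.04% of all probe sets passed in DBA/2J and 0% in A/J mice.

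Cells that carry MHC molecules in brain were followed through their markers, since in bulk tissue fewer cells of a type and less RNA per cell cannot be told apart. Of 19 microglia marker probe sets, 16 were lower in DBA/2J control mice, with 2 called lower and 1 called higher, and the median log2 difference was -0.28. The share called was 15.8%, beside 3.87% of all probe sets, and is given in brackets for the other marker lists with calls. The summed unlogged level was 1331 to 1393 in DBA/2J control mice and 1618 to 1762 in A/J control mice. The calls were Cx3cr1, the fractalkine receptor, at -1.05 (adjusted p = 8.80e-05 in limma), P2ry12, a purinergic receptor, at -0.38 (adjusted p = 0.0126 in limma) and Selplg, a selectin ligand, at 0.38 (adjusted p = 0.0436 in limma). A second Cx3cr1 probe set differed by -0.17 (adjusted p = 0.551 in limma). In risperidone mice the called Cx3cr1 probe set differed by -0.775 (adjusted p = 0.00621 in limma), and by -0.89 once the 3 intermediate A/J arrays were left out, where it was not called (adjusted p = 0.147). Selplg was not called without DBA/2J control replicate 4 (0.35, adjusted p = 0.0913), nor once the 3 intermediate A/J arrays were left out (adjusted p = 0.0580), and passed in 6 of 16 fits that left out 1 array. The members called between the strains were higher in DBA/2J control mice, where most microglia markers were lower. Border macrophage and dendritic cell markers summed to 631 to 699 in DBA/2J and 654 to 695 in A/J control mice, with 0 of 21 called. Lymphocyte markers summed to 302 to 358 in DBA/2J and 301 to 330 in A/J control mice, with 0 of 15 called. For endothelial and mural cells 1 of 21 marker probe sets was called higher and 1 lower (9.52%), with sums of 2805 to 3102 in DBA/2J and 2724 to 2980 in A/J control mice. Of 17 for striatal projection neurons, 14 were lower in DBA/2J control mice with 3 called (17.6%). The sums were 1438 to 1520 in DBA/2J and 1584 to 2028 in A/J control mice. Of 17 for oligodendrocytes 15 were lower with 3 called (17.6%, median -0.35), and of 18 for thalamus 16 were lower with 2 called (11.1%, median -0.52). Of 25 for astrocytes 1 was called higher and 2 lower (12%). All 3 were probe sets of 1 gene, Gfap, and they disagreed in sign, at 1.31, -0.42 and -0.43. For blood 0 of 12 and for choroid plexus and ependyma 0 of 17 were called. The choroid plexus sum was 608 to 1062 in DBA/2J and 824 to 7668 in A/J control mice. The part of any of these cells in the member values was not tested.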

How the data were processed

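Striatal RNA of 16 mice was measured on 1 array each. The deposited values are log2 levels per probe set, normalized by the authors with RMA per the submitters' processing notes (version not given in the sources used here), and carry no detection calls. The table holds 45141 probe sets, of which 45037 were tested and 104 are array controls. Of these, 28898 name 1 gene, 551 several and 15588 none in the platform annotation, and 28689 matched RefSeq GRCm38.p6 by Entrez ID. With limma 3.58.1 in R 4.3.3, 1 mean per group was fitted over all arrays (lmFit and eBayes, two-sided, Benjamini-Hochberg adjustment over all probe sets tested, threshold 0.05). The fit was tested on simulated data. The log2 scale was kept, and a group's fold is the power of the log2 difference. The precision is limited by 4 arrays a group.

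Every member probe set is described. From each of the 5 companion lists of MHC and interferon genes, up to 4 called probe sets with the smallest adjusted p per comparison are named, H2-D1 is named for its likeness to H2-K1, and the 5 genes most like Cd74 by Pearson r are named. Microglia genes were chosen after their values were seen, as the called ones of their marker list in control mice. Drd1, Drd2 and Penk were chosen for their known role. The other marker lists are given by counts, and Gfap is named because every astrocyte call in control mice was one of its probe sets. The fits of list genes without arrays that stand apart were added after seeing the data. The members, lists and rules were chosen with earlier results of these data known. Strain markers differed by at least 1.5 on the log2 scale between control mice, reached 7 in the higher strain and had an adjusted p under 0.01; control arrays were scored without themselves. Replicate numbers were used as sample names only. Of 16 same-numbered pairs, 5 correlated above 0.1 and 7 were matched best by their own number. This check cannot show whether the numbers mark a batch, and a fit with them as a block is given below. Correlations used Python 3.11.15 with scipy 1.17.1, and figures matplotlib 3.10.9.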

Additional observations from a re-analysis of the deposited data

Results flagged for a closer look

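Of 76 groups of 4 arrays, 7 held a member value whose gap to its nearest neighbour exceeded the share of the group's range that Dixon's test allows at 95%, and chance marks about 1 in 20 such groups. Of these, 3 lay in DBA/2J control replicate 4, the array that stood apart over all probe sets. They were H2-K1 1424948_PM_x_at at 4.60 (the other 3 arrays 3.96 to 4.06), H2-T23 1419658_PM_at at 4.90 (4.08 to 4.19) and H2-Ab1 1451721_PM_a_at at 4.99 (3.94 to 4.09). A/J control replicate 1 was low for H2-K1 1450534_PM_x_at at 5.46 (5.65 to 5.66). A/J control replicate 4 was high for Psmb8 1422962_PM_a_at at 5.55 (5.13 to 5.16). DBA/2J risperidone replicate 4 was high for H2-Aa 1443783_PM_x_at at 3.35 (2.65 to 2.72). A/J risperidone replicate 2 was high for H2-Ab1 1425477_PM_x_at at 4.78 (4.54 to 4.57).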

How the results depend on the processing

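Of 2804 member differences recomputed under the alternatives, 2795 kept their side of the threshold, 4 lost it, 5 gained it and 0 called values changed sign, while 182 values called in neither fit did. Only 3 member differences were called in the main fit. Leaving out an array of a group not compared changes the spread but not the difference. The high count was thus largely set in advance and says little about the called values. Between control mice H2-K1 1425336_PM_x_at passed in all 24 settings run (log2 difference 1.11 to 1.54) and H2-T23 1449556_PM_at in all 25 (0.82 to 1.04), while H2-Ab1 1450648_PM_s_at passed in 20 of 24. The count of 3 members called was 1 among probe sets at or above the median level, a filter that removes 14 of the 19, and 2 to 3 leaving out 1 array at a time. With the replicate number as a replicate block it was 3, and the block changed no other member count; 7 of 16 same-numbered pairs were matched best by their own number. In risperidone mice the count of 0 was 2 with array weights, where 621 of all 45037 probe sets passed, against 352 in the main fit. It was 1 with only the arrays compared, where 319 of all probe sets passed, and 0 to 1 leaving out 1 array. The count of 3 disagreeing pairs was 0 with only the arrays compared, where 207 of all 19058 same-gene pairs passed, against 477 in the main fit. It was 1 to 4 leaving out 1 array. The risperidone counts of 0 did not change under any setting run. Beyond the smaller numbers of probe sets or arrays in some settings, the cause was not tested. The number of arrays, 4 a group, and the absence of detection calls limit what dim probe sets can show.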
